A study of Homo sapiens with 12 samples.

Results

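The genes described here are 10 that extracellular signal-regulated kinase (ERK) signalling is known to induce or that act on mitogen-activated protein kinases (MAPK). They were chosen by name: 4 dual-specificity phosphatases (DUSP4, DUSP5, DUSP6 and DUSP8), 3 Sprouty and SPRED inhibitors (SPRY2, SPRY4 and SPRED1), the PEA3 factors ETV4 and ETV5, and PHLDA1. These genes and the lists of related genes below were chosen with earlier results of these data known. All 10 were found among the 60623 genes of the deposited count table, and all 10 passed the filter on low counts that left 23684 genes for testing. RNA was sequenced from COLO320DM and SW480, 2 established human colorectal cancer cell lines, to look for expression changes that might promote proliferation. Each line received pCMV6-HKDC1, which drives the hexokinase-like gene HKDC1 from the CMV promoter, or the empty plasmid pCMV6-Entry. There were 3 libraries in each of the 4 groups, 12 in all. All 4 groups were transfected with 10 µg of plasmid and Lipofectamine 2000 and received fresh medium after 24 h, so the controls had the same exposure to plasmid and lipid, and no untransfected cells were analysed here. Nothing in the labels states that the 3 replicates were separate cultures, so p-values measure the spread between these libraries. HKDC1 comes from a plasmid in a cell population, and the share of cells that took it up is not given in the sources used here.

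In the RAS-ERK pathway, activated RAS recruits RAF kinases, which switch on MEK and then ERK, and ERK drives transcription through ETS-family and AP-1 factors. Among the genes it induces are its own brakes: DUSP enzymes remove the activating phosphates from MAP kinases, and Sprouty and SPRED proteins dampen signalling upstream at the level of receptors, RAS and RAF. The transcripts of DUSP6, SPRY2, SPRY4, ETV4, ETV5 and PHLDA1 are widely used as a transcriptional readout of the pathway in epithelial tumours. The labels give no genotype for either line.

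Library totals ranged from 33790733 to 45451279 counts. HKDC1 itself had 0, 1 and 1 counts in the empty-vector COLO320DM libraries and 269799 to 333102 with its plasmid, and 1275 to 1549 against 477515 to 499910 counts in SW480. Replicate 1 stood apart from replicates 2 and 3 in all 4 groups: a chi-squared test of the counts gave 24.5 to 82.9 per degree of freedom for replicate 1 against either other library, and 3.18 to 10.1 for replicate 2 against replicate 3. Of 9 colon epithelial markers, 6 reached a mean of 1 CPM (the count scaled to the library's size) in COLO320DM and 8 in SW480, with a summed level of 1590 to 1800 CPM per library against 6610 to 9530 CPM. CDX2 alone was lower in SW480 (a mean of 1451 CPM in empty-vector COLO320DM against 13.3 CPM), and the other 8 markers summed to 218 to 278 CPM in COLO320DM and 6600 to 9510 CPM in SW480. KRT19, CDH1 and CDX1 were under 1 CPM in COLO320DM, and CDX1 in SW480. CHGA, INSM1 and SCG2, 3 of 5 neuroendocrine markers, were under 1 CPM in both lines. The other two went opposite ways, with empty-vector means of 2.01 CPM in COLO320DM and 0.468 CPM in SW480 for CHGB and of 2.04 and 4.81 CPM for SYP. Of 11 markers of leukocytes, fibroblasts and endothelium, 3 reached 1 CPM in each line. The leukocyte gene PTPRC was at 36.0, 38.3 and 35.5 CPM in empty-vector COLO320DM and at most 0.066 CPM in SW480, while the fibroblast gene LUM had means of 0.602 CPM and 15.6 CPM. Another gene of each class went the other way. The leukocyte gene CD68 had empty-vector means of 3.20 CPM in COLO320DM and 9.73 CPM in SW480. For the fibroblast gene COL1A1 they were 9.01 and 3.27 CPM. These markers separate the same libraries as the feedback genes do, and their part in the differences between the lines was not tested.

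All of these genes except DUSP8 were more abundant in SW480 than in COLO320DM, from about 2-fold for ETV5 to a ratio of 2640 for DUSP4. In the empty-vector libraries 9 of 10 were called higher in SW480 by edgeR's quasi-likelihood test (Benjamini-Hochberg adjusted p under 0.05 over all genes tested), 0 were called lower, and DUSP8 was not called. With that comparison 37.3% of all tested genes were called higher and 34.3% lower, since the lines differ at most genes. All 9 were at least 2-fold higher, against 23.3% of tested genes. Without DUSP4, which passed the count filter only through SW480 and so had to differ, 8 of 9 were called. All 8 were at least 2-fold higher, and the median log2 difference of the 9 was 4.47. The median difference of the 10 genes was also 4.47 on the log2 scale, against 0.04 over all genes tested. In the HKDC1 libraries, which share no library with the first comparison, 9 of 10 were again called higher (background 37.4%) and 0 lower (background 33.5%). At least 2-fold higher there were 8 of 10 (background 23.0%), and the median difference of the 10 genes was 4.33 against 0.05. Leaving DUSP4 out, 8 of 9 were called there, 7 of them at least 2-fold higher, with a median of 4.32. In bulk RNA, more cells with a transcript and more transcript per cell cannot be told apart. For each of the 9 genes, every SW480 library lay above every COLO320DM library with the same plasmid, and the exact two-sided permutation test gave p = 0.1, the smallest that 3 against 3 libraries allow. How many of all tested genes show such a gap was not counted, and DUSP4 had to differ.

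**Figure D1:**
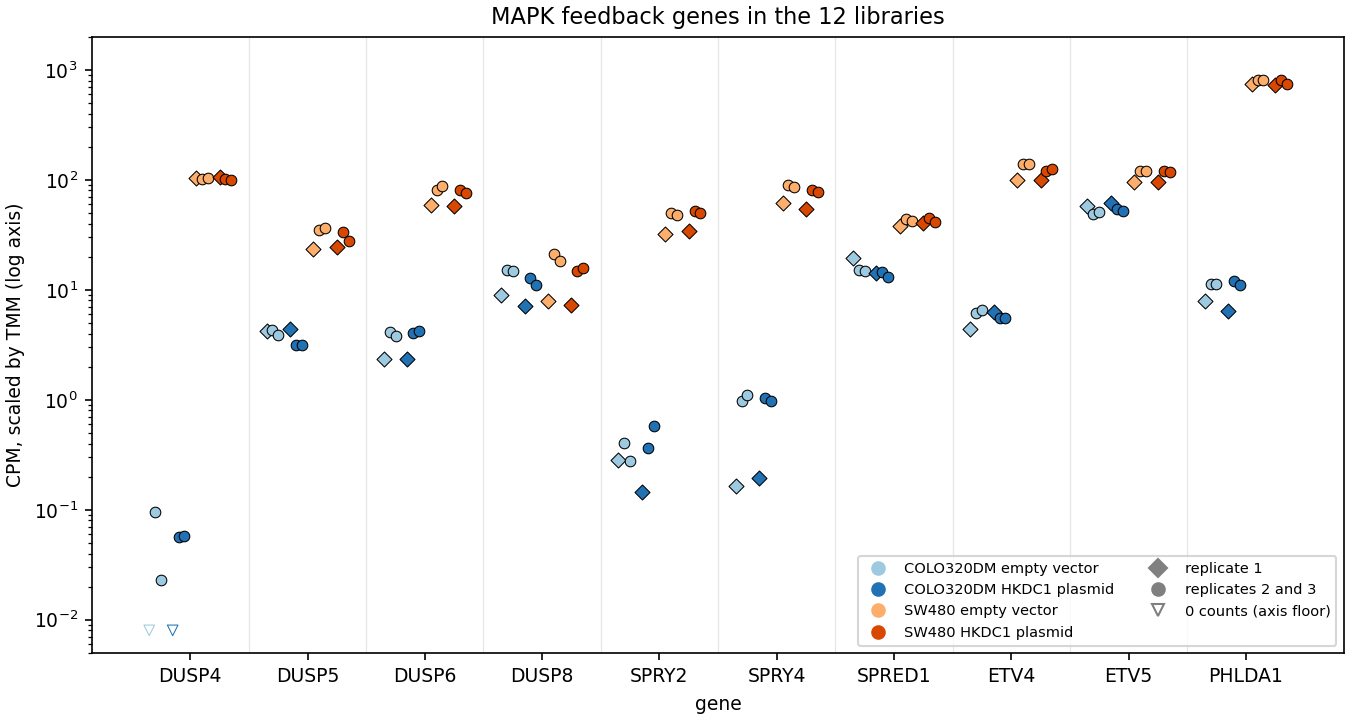
CPM scaled by TMM (log axis) of the 10 genes in each of the 12 libraries; diamonds are replicate 1, circles replicates 2 and 3, and open triangles at the axis floor are libraries with 0 counts. Both SW480 groups lie above both COLO320DM groups for 9 genes, with DUSP4 near 0 in COLO320DM, and the lines overlap for DUSP8.

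DUSP4 (ENSG00000120875, GRCh38 chr8:29333064-29350684, minus strand) encodes a nuclear phosphatase that acts on ERK, JNK and p38. It had 0, 4 and 1 counts in the empty-vector COLO320DM libraries and 0, 2 and 2 with HKDC1. In SW480 it had 4039, 3702 and 4758 counts with the empty vector and 3751, 4170 and 3509 with HKDC1. COLO320DM was thus at or near 0 in all 6 libraries, and the lowest SW480 library had 3509 counts. The gene passed the count filter only through SW480, so its values are given as a description, without an adjusted p. The ratio of SW480 to COLO320DM over summed, scaled counts was 2640 (95% interval 1130 to 8140, counting error only) with the empty vector and 2870 (1120 to 10500) with HKDC1. The fitted log2 differences were 11.25 and 11.36, and rest on the few COLO320DM reads. Without empty-vector COLO320DM replicate 2 the first was 12.76, and without HKDC1 COLO320DM replicate 1 the second was 10.74.

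DUSP6 (ENSG00000139318, chr12:89347235-89352501, minus strand) encodes the cytoplasmic phosphatase selective for ERK. Its level was 2.36, 4.15 and 3.80 CPM in empty-vector COLO320DM and 2.37, 4.09 and 4.20 CPM with HKDC1. In SW480 it was 58.9, 81.2 and 88.7 CPM with the empty vector and 57.5, 80.3 and 75.7 CPM with HKDC1. The lowest SW480 library was far above the highest of COLO320DM, and replicate 1 was the lowest library of every group. The log2 differences between the lines were 4.47 (SE 0.26, adjusted p = 4.8e-09) and 4.33 (SE 0.26, adjusted p = 6.9e-09). An antisense gene, ENSG00000274021, shares 1105 bases with DUSP6 exons (28.6% of them), and its count was 19.7% to 28.2% of that of DUSP6. The strand setting of the counting is not given in the sources used here, so reads from these partners cannot be told apart.

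DUSP5 (ENSG00000138166, chr10:110497907-110511533, plus strand) encodes a nuclear phosphatase selective for ERK. It was at 4.24, 4.27 and 3.87 CPM in empty-vector COLO320DM and at 4.39, 3.14 and 3.15 CPM with HKDC1. In SW480 the values were 23.5, 35.1 and 36.2 CPM and, with HKDC1, 24.3, 33.7 and 27.5 CPM. The lines did not overlap. Its log2 differences were 2.94 (SE 0.20, adjusted p = 1.7e-08) and 2.99 (SE 0.20, adjusted p = 1.7e-08).

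DUSP8 (ENSG00000184545, chr11:1554051-1572271, minus strand) belongs to the phosphatase branch that prefers JNK and p38 to ERK, and it was the exception. It was at 9.03, 15 and 14.7 CPM in empty-vector COLO320DM and at 7.89, 21.1 and 18.3 CPM in empty-vector SW480. With HKDC1 it was at 7.07, 12.7 and 11.1 CPM in COLO320DM and at 7.28, 14.7 and 15.7 CPM in SW480. The lines overlapped, and replicate 1 was the lowest library of every group. Its log2 difference was 0.29 (95% interval -0.49 to 1.07, adjusted p = 0.48) with the empty vector and 0.29 (-0.50 to 1.08, adjusted p = 0.50) with HKDC1.

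Promoter sequence from RefSeq (GRCh38.p14) was at hand for 6 of the 10 genes: DUSP6, DUSP8, SPRY2, SPRY4, SPRED1 and PHLDA1. The 250 bases before the start are shown for DUSP8 (chr11:1572272-1572521, minus strand), which did not differ by the test, and for SPRY2 (chr13:80341127-80341376, minus strand), which differed by over 100-fold. SPRY2 has 3 RefSeq starts. In each window shown the start is that of the gene in the deposited table, and the window holds no annotated exon. Both run 5′ to 3′ on the gene's strand, and capitals mark matches of the motifs described after them.
DUSP8: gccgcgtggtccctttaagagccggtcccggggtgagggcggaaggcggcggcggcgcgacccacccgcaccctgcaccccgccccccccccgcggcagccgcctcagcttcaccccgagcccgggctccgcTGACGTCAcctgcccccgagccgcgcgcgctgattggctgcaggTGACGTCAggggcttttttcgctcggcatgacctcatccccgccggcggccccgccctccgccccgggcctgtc
SPRY2: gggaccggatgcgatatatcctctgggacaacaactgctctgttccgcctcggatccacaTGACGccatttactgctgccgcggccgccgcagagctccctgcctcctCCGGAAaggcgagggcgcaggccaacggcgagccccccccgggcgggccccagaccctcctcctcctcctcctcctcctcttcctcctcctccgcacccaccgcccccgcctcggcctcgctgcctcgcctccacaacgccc

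Both strands of each window were searched for an ETS site (CCGGAA), a cAMP response element (CRE) core (TGACG), the full palindromic CRE (TGACGTCA, which holds the core on each strand), an AP-1 site (TGANTCA), the octamer of the repressor CIC (TGAATGNA) and the CArG box of SRF. The DUSP8 window holds 2 full CREs, a match present in 1.65% of the 35114 RefSeq promoters of the same length. The SPRY2 window holds 1 ETS site, found in 14.5% of promoters, and 1 CRE core, found in 21.2%. PHLDA1 has 1 ETS site and SPRY4 1 CRE core in their windows. AP-1 (6.57% of promoters), CIC (3.25%) and CArG (1.16%) letters were in none of the windows searched. These are matches of letters in a short window; no binding was measured.

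SPRY2 (ENSG00000136158, chr13:80335976-80341126, minus strand) encodes a Sprouty protein, an inhibitor of growth factor receptor signalling to RAS. It had 12, 17 and 12 counts in empty-vector COLO320DM and 6, 13 and 20 with HKDC1. In SW480 it had 1245, 1828 and 2181 counts and, with HKDC1, 1218, 2146 and 1760. COLO320DM thus held a few reads in every library and SW480 at least 1218. The ratio over summed, scaled counts was 135 (95% interval 99.7 to 189, counting error only) with the empty vector and 132 (96.2 to 186) with HKDC1. The log2 differences were 7.06 (SE 0.33, adjusted p = 4.9e-10) and 7.01 (SE 0.33, adjusted p = 5.9e-10).

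SPRY4 (ENSG00000187678, chr5:142310427-142326455, minus strand) encodes another Sprouty inhibitor. Its level was 0.165, 0.977 and 1.11 CPM in empty-vector COLO320DM and 0.195, 1.04 and 0.984 CPM with HKDC1. In SW480 it was 61.7, 90.1 and 85.5 CPM and, with HKDC1, 54.5, 80.6 and 77.1 CPM. The lines were far apart. Within COLO320DM, replicates 2 and 3 averaged 6.33 times replicate 1 with the empty vector and 5.18 times with HKDC1. The log2 differences between the lines were 6.71 (SE 0.46, adjusted p = 2.4e-08) and 6.61 (SE 0.47, adjusted p = 3.4e-08).

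SPRED1 (ENSG00000166068, chr15:38252836-38357249, plus strand) encodes the scaffold that brings the RAS-inactivating protein NF1 to the membrane. It was at 19.6, 15.2 and 14.7 CPM in empty-vector COLO320DM and at 38.3, 44.1 and 42.6 CPM in empty-vector SW480. With HKDC1 it was at 14.3, 14.5 and 13.0 CPM against 40.7, 45.4 and 41.0 CPM. The lines did not overlap, but SPRED1 was well expressed in both. The log2 differences were 1.34 (SE 0.12, adjusted p = 3.0e-07) and 1.61 (SE 0.12, adjusted p = 5.6e-08).

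ETV4 (ENSG00000175832, chr17:43527844-43579620, minus strand) encodes a PEA3-type ETS transcription factor that ERK signalling induces and activates. It was at 4.41, 6.10 and 6.62 CPM in empty-vector COLO320DM and at 6.22, 5.49 and 5.53 CPM with HKDC1. In SW480 it was at 100, 140 and 139 CPM and, with HKDC1, at 99.1, 121 and 125 CPM. Every SW480 library exceeded every COLO320DM library by a wide margin. The log2 differences were 4.47 (SE 0.18, adjusted p = 1.3e-10) and 4.32 (SE 0.18, adjusted p = 1.8e-10).

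ETV5 (ENSG00000244405, chr3:186046314-186110318, minus strand) is its close paralog and differed less between the lines. It was at 57.9, 48.5 and 50.6 CPM in empty-vector COLO320DM and at 61.9, 54.5 and 52.3 CPM with HKDC1. In SW480 it was at 94.8, 120 and 121 CPM and, with HKDC1, at 95.1, 121 and 117 CPM. The lines did not overlap, and COLO320DM held a substantial level. The log2 differences were 1.10 (SE 0.13, adjusted p = 3.8e-06) and 0.99 (SE 0.13, adjusted p = 1.1e-05), the second just under 2-fold.

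PHLDA1 (ENSG00000139289, chr12:76025447-76033932, minus strand) encodes a pleckstrin-homology-like protein that growth factors induce. It was at 7.97, 11.2 and 11.3 CPM in empty-vector COLO320DM and at 6.37, 12 and 11 CPM with HKDC1. In SW480 it was at 744, 812 and 817 CPM and, with HKDC1, at 728, 806 and 747 CPM. The groups of the lines were far apart and tight within SW480. The log2 differences were 6.28 (SE 0.23, adjusted p = 5.3e-11) and 6.28 (SE 0.23, adjusted p = 5.6e-11). Its antisense gene PHLDA1-AS1 shares 553 bases of its exons (6.85%) and had 14.5% to 27.8% of its count, so reads of the pair cannot be told apart.

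Per kb of exon, the order of the levels differed between the lines. In empty-vector COLO320DM, ETV5 led at 9.07 ± 0.854 CPM per kb (SD, n = 3), higher than 75.4% of tested genes, and its range did not overlap the next. DUSP8 (2.6 CPM per kb) and SPRED1 (2.13 CPM per kb) followed and overlapped each other. DUSP5, ETV4, PHLDA1 and DUSP6 formed a run from 1.63 to 0.89 CPM per kb in which each overlapped its neighbour. SPRY4 (0.114 CPM per kb) and SPRY2 (0.1 CPM per kb) overlapped, and DUSP4 was last at 0.00543 ± 0.00684 CPM per kb. In empty-vector SW480, PHLDA1 led at 98.0 ± 5.01 CPM per kb, above 98.0% of tested genes, and ETV4 followed at 35.9 ± 6.49 CPM per kb with no overlap. DUSP6 (19.8 CPM per kb) and ETV5 (19.4 CPM per kb) overlapped, as did DUSP4, SPRY2, DUSP5 and SPRY4 in a run from 14.2 to 12.1 CPM per kb. SPRED1 (5.38 CPM per kb) and DUSP8 (3.18 CPM per kb) were the lowest, so DUSP8, second of 10 in COLO320DM, was last in SW480 at a similar level.

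Paralogs of these genes differed in both directions. Of 13 relatives, 7 were called higher in empty-vector SW480 (background 37.3%), 4 lower (background 34.3%) and 2 not called, with differences from -2.76 to 8.61 on the log2 scale. PHLDA2 and PHLDA3, which passed the count filter only through SW480 and so had to differ, are among the 7. DUSP9, a cytoplasmic ERK phosphatase like DUSP6, was lower in SW480 by a log2 difference of -2.76 (adjusted p = 8.2e-08), and DUSP7, the other of that class, by -0.52 (adjusted p = 0.0080). DUSP6 made up 5.02% ± 0.839 (SD, n = 3) of the CPM per kb of these 3 genes in empty-vector COLO320DM and 78.3% ± 7.24 in SW480, while DUSP9 made up 64.9% and 6.91%. Their sum was 17.5 CPM per kb in COLO320DM and 25.1 CPM per kb in SW480. DUSP9 thus supplied most of this class in COLO320DM and DUSP6 in SW480.

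Among the nuclear, inducible phosphatases, DUSP2 (log2 difference 2.27, adjusted p = 2.3e-09) and DUSP1 (0.86, adjusted p = 2.0e-04) were higher in SW480 along with DUSP4 and DUSP5. The summed level of these 4 genes was 10.4 CPM per kb in COLO320DM and 59.7 CPM per kb in SW480, and DUSP4 held 0.0518% and 24.1% of it. In the branch of DUSP8 that prefers JNK and p38, DUSP16 was lower in SW480 (-0.75, adjusted p = 5.7e-05) and DUSP10 was not called (-0.08, adjusted p = 0.84). The summed level of DUSP8, DUSP10 and DUSP16 was 17.8 CPM per kb in COLO320DM and 12.8 CPM per kb in SW480.

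SPRY1 was higher in SW480 (log2 difference 1.33, adjusted p = 6.0e-04) and SPRY3 lower (-1.82, adjusted p = 1.9e-04). SPRY1 and SPRY3 together held most of the Sprouty level in COLO320DM, 51.4% and 32.1% of the CPM per kb of the 4 genes, whereas SPRY2 and SPRY4 held 48.9% and 43.9% in SW480. The sum was 1.34 CPM per kb in COLO320DM and 27.4 CPM per kb in SW480. SPRED2 was higher in SW480 (0.48, adjusted p = 7.0e-05), and SPRED3, at under 1 CPM in both lines, was not called (-0.50, adjusted p = 0.070). ETV1, the third PEA3 factor, was higher in SW480 by 1.65 (adjusted p = 4.9e-09). ETV5 supplied 70.8% of the PEA3 level per kb in COLO320DM and ETV4 57.8% in SW480. The sum of the 3 PEA3 genes was 12.8 CPM per kb in COLO320DM and 61.9 CPM per kb in SW480. ETV5 itself was at 9.07 and 19.4 CPM per kb, so its share fell while its level was higher. PHLDA2 (6.28) and PHLDA3 (8.61) were both higher in SW480, and PHLDA3 had at most 1 count in any COLO320DM library. Both passed the count filter only through SW480, so they are given without an adjusted p.

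**Figure D2:**
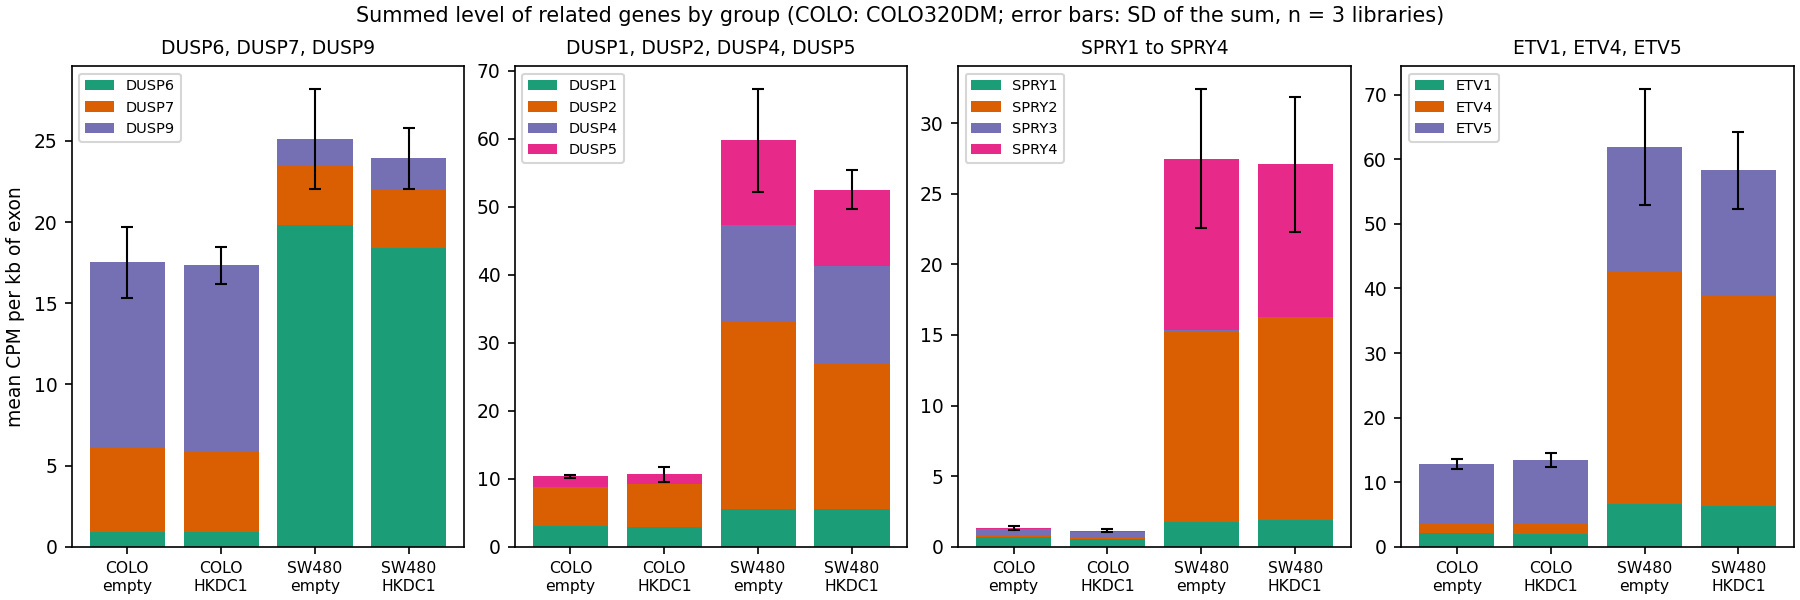
Summed mean level of related genes in the 4 groups, in CPM per kb of exon, stacked by gene; error bars are the SD of the sum over 3 libraries. DUSP9 fills most of the DUSP6/DUSP7/DUSP9 bar in COLO320DM and DUSP6 in SW480. The largest share of the PEA3 bar is ETV5 in COLO320DM and ETV4 in SW480. The Sprouty, nuclear DUSP and PEA3 bars are many times or several times taller in SW480.

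The kinases and adaptors of the pathway itself differed in both directions, most of them by less than 2-fold. Of 17 cascade genes, 2 were higher in empty-vector SW480 (background 37.3%), 8 lower (background 34.3%) and 7 not called, with a median log2 difference of -0.11 against 0.04 over all genes. With the replicate number as a block shared by both lines, SHC1 was called higher as well (0.20, adjusted p = 0.024). Whether the replicate numbers match between the lines was not tested. MAP2K1, which encodes MEK1, was higher by 1.20 (adjusted p = 1.0e-08). BRAF was higher by 0.37 (adjusted p = 0.041), a call lost in 7 of 13 alternative analyses. The scaffold KSR1 (-2.53, adjusted p = 6.2e-08) and the adaptor GAB1 (-2.93, adjusted p = 4.2e-10) were more than 2-fold lower in SW480. MAPK3, SOS1, NRAS, SOS2, GRB2 and RASA1 were lower by log2 differences of -0.84 to -0.21. MAP2K2, which encodes MEK2, was not called (-0.00023, adjusted p = 1.0).

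Other genes that ERK induces were mostly higher in SW480 as well. Of 16 listed, 13 were called higher (background 37.3%), each at least 2-fold (background 23.3%), 1 lower (background 34.3%) and 2 not called, with a median log2 difference of 3.35 against 0.04. LIF (7.72, adjusted p = 2.9e-07), FOSL1 (7.39, adjusted p = 5.8e-12), EGR1 (7.16, adjusted p = 3.4e-07) and IER3 (7.05, adjusted p = 3.1e-10) had the largest differences. FOSL1, which encodes the AP-1 subunit FRA1, was at 0.448, 0.620 and 0.579 CPM in empty-vector COLO320DM and at 68.8, 106 and 103 CPM in SW480. MYC was the gene called lower (-1.87, adjusted p = 8.3e-10). COLO320DM is known for its MYC amplification, but copy number was not measured here and its part in this difference was not tested. EPHA4 (0.14, adjusted p = 0.30) and SPHK1 (0.21, adjusted p = 0.52) were not called. Of 8 transcription factors that act on these genes, 3 were called higher (background 37.3%) and 2 lower (background 34.3%), counts near the shares over all genes. ETS1 (8.13), among the 3, passed the count filter only through SW480 and so had to differ. The repressor ERF (1.25, adjusted p = 2.8e-06) and the repressor CIC (0.85, adjusted p = 2.3e-05) were higher in SW480. ELK3 (-1.43, adjusted p = 2.7e-08) and ETS2 (-0.31, adjusted p = 0.0085) were lower, and ELK1, ELK4 and SRF were not called. With the block shared by both lines, SRF was called lower (-0.21, adjusted p = 0.031). ETS1 had 0, 7 and 2 counts in empty-vector COLO320DM, and its difference was 9.61 without replicate 2 of that group.

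**Figure D3:**
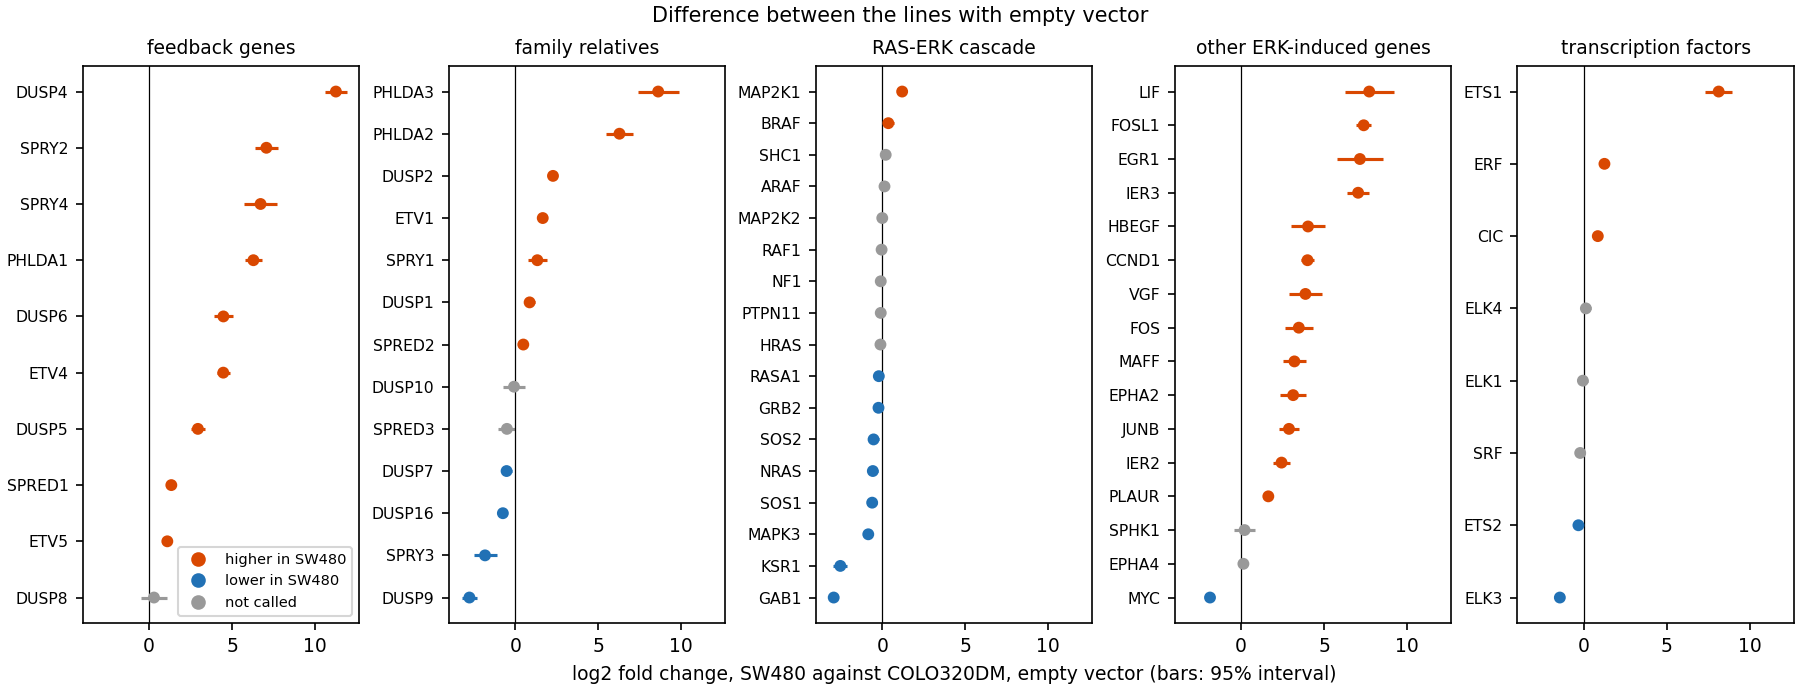
Fitted log2 fold change of SW480 against COLO320DM with empty vector for the 10 feedback genes and 4 lists of related genes; bars are 95% intervals and colours give the call. The feedback genes and the other ERK-induced genes lie mostly to the right of 0, and 15 of the 17 cascade genes lie between -1 and 1.2.

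None of these genes was called as changed by the HKDC1 plasmid in either line. In COLO320DM, 0 of 10 were called between HKDC1 and empty vector by edgeR's quasi-likelihood test, against 0.00844% of tested genes (2 genes). In SW480 it was 0 of 10 against 0.0127% (3 genes), and for the difference between the lines in the plasmid effect 0 of 10 against 0.00844% (2 genes). Before adjustment, 0 of 10 had p under 0.05 in each of the 3 comparisons, where 312, 356 and 379 of 23684 tested genes did. With the replicate number as a block within each line, 0 of 10 were called again, while the background rose to 0.0760% in COLO320DM (18 genes) and 0.760% in SW480 (180 genes). In the blocked fit, 2 of 10 had an unadjusted p under 0.05 in each line and 1 of 10 for the difference. Of all 23684 tested genes, 1292 did in COLO320DM, 2360 in SW480 and 1800 for the difference. The other tools, limma-voom and DESeq2, called 0 of 10 in each comparison as well.

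The size of effect that these libraries leave possible differed between genes and lines. The fitted log2 effects ran from -0.32 to 0.13 in COLO320DM and from -0.33 to 0.08 in SW480, and at these values no gene was near a 2-fold change. In SW480 the 95% interval was -0.31 to 0.30 for DUSP4, -0.27 to 0.26 for ETV5 and -0.22 to 0.27 for SPRED1. It was wider for SPRY4 (-0.87 to 0.55) and DUSP8 (-1.11 to 0.46). In COLO320DM the intervals of the rarest transcripts were wide, -2.02 to 1.79 for DUSP4, -0.89 to 1.16 for SPRY2 and -1.31 to 1.18 for SPRY4, so a 2-fold rise of those genes lay within these intervals. With the block they were -1.73 to 1.62 for DUSP4, -0.51 to 0.80 for SPRY2 and -0.44 to 0.40 for SPRY4, and only that of DUSP4, with 0 to 4 counts per library, still held a 2-fold change. PHLDA1 had -0.06 in both lines (-0.48 to 0.36 in COLO320DM and -0.45 to 0.34 in SW480).

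With the block, DUSP8 came nearest to a call. Its level was lower with HKDC1 in 3 of 3 same-numbered pairs in each line, by a log2 effect of -0.32 in COLO320DM and -0.33 in SW480. With the block the effects were -0.33 (95% interval -0.52 to -0.13, adjusted p = 0.40) and -0.30 (-0.49 to -0.12, adjusted p = 0.13). Without pair 1 the blocked fit called it in SW480 (-0.39, adjusted p = 0.036), as it did 543 of 23759 tested genes. The groups with and without HKDC1 overlapped in both lines. SPRED1 in COLO320DM was the gene whose groups did not overlap, at 13.0 to 14.5 CPM with HKDC1 and 14.7 to 19.6 CPM without (exact permutation p = 0.1). Its log2 effect was -0.24 (adjusted p = 1.0, and 0.65 with the block), so it was not called either. The blocked difference between the lines for SPRED1 was 0.26 (adjusted p = 0.56). The share of all tested genes whose plasmid groups did not overlap was not counted.

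**Figure D4:**
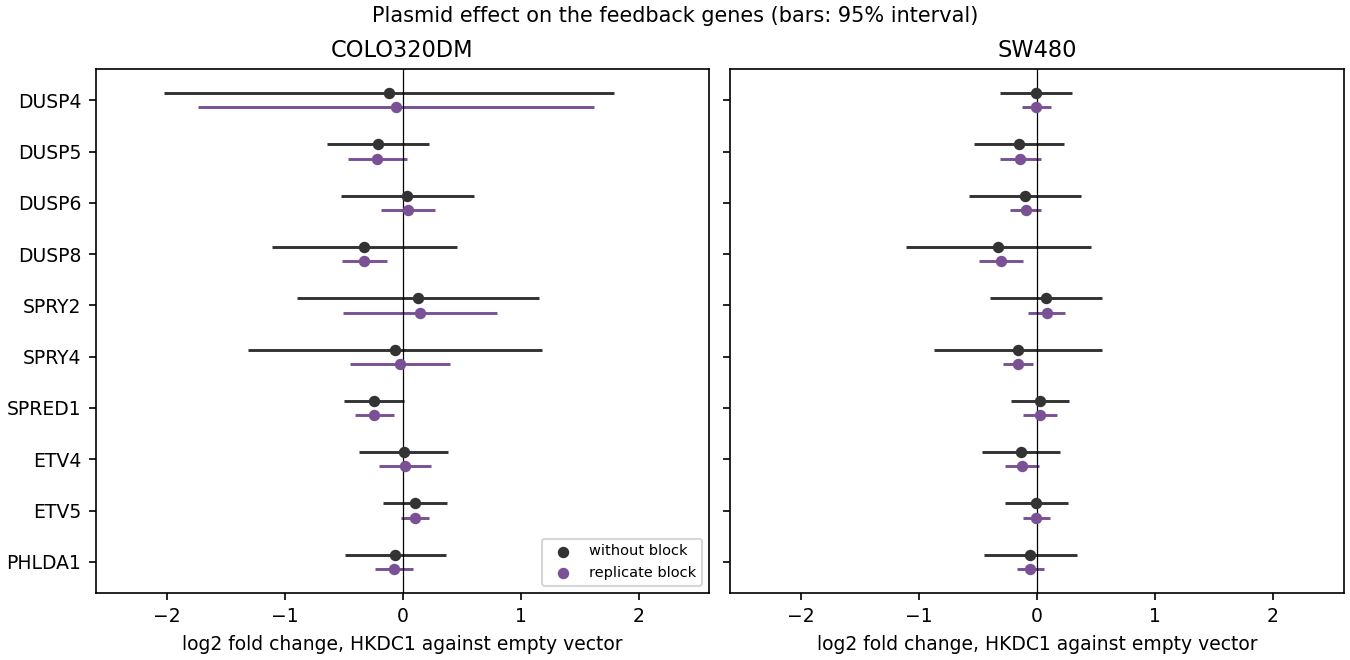
Fitted log2 fold change of HKDC1 against empty vector for the 10 genes in each line, without the block (dark) and with the replicate block (purple); bars are 95% intervals. All points lie within 0.33 of 0 and none was called, and the intervals of DUSP4, SPRY2 and SPRY4 are the widest in COLO320DM.

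Several of the other ERK-induced genes were called lower with HKDC1 in SW480 once the block was used. Without it 0 of 16 were called in SW480, although all 16 values were below 0 (median -0.36) and 3 had an unadjusted p under 0.05, as did 356 of 23684 tested genes. With it 10 of 16 were called lower, against 0.595% of tested genes, and LIF (-0.60, adjusted p = 5.4e-05), FOSL1 (-0.41, adjusted p = 7.6e-04), EPHA2 (-0.33, adjusted p = 0.0020), EGR1 (-0.34, adjusted p = 0.0028) and IER3 (-0.32, adjusted p = 0.0029) led. FOSL1 was at 68.8, 106 and 103 CPM with the empty vector and at 61.1, 76.7 and 68.3 CPM with HKDC1 in SW480, so the ranges overlapped while each same-numbered pair fell. The matching of replicates 2 and 3 across plasmids is not settled by the data. HBEGF, MAFF, JUNB, MYC and VGF were the other 5. Leaving out pairs 1, 2 and 3 in turn gave 11, 5 and 7 calls. Over all tested genes, 428 of 23759, 51 of 23743 and 112 of 23799 were called lower in these fits. Among relatives of the feedback genes, DUSP2 (-0.34, adjusted p = 0.013) and PHLDA2 (-0.49, adjusted p = 0.018) were also lower with the block. In COLO320DM 0 of 16 were called in either fit, and the blocked test of the difference between the lines called EGR1 (-0.68, adjusted p = 0.028) and EPHA2 (-0.52, adjusted p = 0.0042). That test called 10 of 23684 tested genes, 9 of them lower. Without the block, 0 of 16 were called for the difference, against 2 of all tested genes. Whether the feedback genes and the other ERK-induced genes respond differently to the plasmid was not tested.

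The feedback genes varied with the replicate number, most clearly in SW480. In SW480 replicate 1 was the lowest library of both plasmid groups for 9 of 10 genes, against 32.5% of tested genes, and DUSP4 was the exception, with replicate 1 highest. In COLO320DM it was the lowest in both groups for 5 of 10, against 25.8%, and the highest for ETV5, against 24.7% of tested genes. Among the 5 was DUSP4, with 0 counts in replicate 1 and at most 4 in the other libraries. The mean of replicates 2 and 3 was 2.5 times replicate 1 for DUSP8 in empty-vector SW480 and 2.09 times with HKDC1. For DUSP6 these ratios were 1.44 and 1.36 in SW480 and 1.69 and 1.75 in COLO320DM. For PHLDA1 they were 1.09 and 1.07 in SW480 and 1.42 and 1.81 in COLO320DM. EGR1, an immediate early gene, had 187 CPM in replicate 1 of empty-vector SW480 and 598 CPM as the mean of the other two. The labels give no date or batch for the replicates.

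Genes whose variation over the 12 libraries most resembled each member, after each line's mean was subtracted, are given as a description, since the libraries mostly separate into replicate 1 and the rest. For DUSP8 they were JUN (Pearson r = 0.985) and ENDOV (0.978), for DUSP6 AARS1 (0.975) and PLAAT3 (0.973), and for SPRY4 HOXB5 (0.980) and GPC1 (0.978). For SPRED1 they were RNF6 (0.974) and ACER3 (0.964), for ETV4 C19orf48P (0.959) and CHCHD5 (0.955), and for ETV5 MYEF2 (0.957) and TOGARAM2 (0.951). DUSP5 was closest to HUS1 (0.952) and CA2 (0.936), PHLDA1 to PHF11 and LYSMD1 (both 0.948), DUSP4 to RASA3 (0.943) and BOK (0.939), and SPRY2 to CCDC122 (0.922) and HES1 (0.917). No gene was named for more than 1 member.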

How the data were processed

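The authors deposited 1 table of raw counts per gene for the 12 libraries, with positions and exonic lengths, and no normalization. HISAT2 2.1.0, limma and the build GRCh38 are named in the submitters' processing notes. The counter, annotation release and strand setting are not given in the sources used here. Per the labels' protocols, RNA was poly-A selected. All value columns were matched to samples by name.

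Genes were kept by filterByExpr (minimum count 10, minimum total 15). In edgeR 4.0.16 under R 4.3.3, 1 model with a mean per group was fitted to all 12 libraries, with TMM factors and robust quasi-likelihood tests. A Benjamini-Hochberg adjusted p under 0.05 over all 23684 genes was called. CPM are scaled by TMM, and CPM per kb divides by the table's exonic length. SE is the size of the log2 difference divided by the square root of F, and 95% intervals use the test's degrees of freedom. Ratio intervals and depth cover counting error only. The biological coefficient of variation was 0.157. Single values were compared by exact permutation tests. Coordinates are the table's. Alternatives were RLE factors, library totals, no filter, DESeq2 1.42.0, limma-voom (limma 3.58.1), only the groups compared, a replicate block and leaving out libraries. The block was shared by both lines for the line differences and set within each line for the plasmid effects. The fit was tested on simulated data.

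Labels number the replicates 1 to 3. For libraries of the same number, the correlation of deviations from their group means was 0.40, 0.13 and 0.12 (COLO320DM) and 0.72, 0.44 and 0.31 (SW480). All are over 0.1, so the numbers were taken as pairs. Between replicates 2 and 3 of different plasmids the correlation was similar, at 0.15 and 0.16 (COLO320DM) and 0.37 and 0.47 (SW480). The data thus do not tell which of replicates 2 and 3 belong together. The pairing by number is not stated in the labels, and in the data it mainly sets replicate 1 apart. Blocked values stand beside a result whose call or count they change.

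The genes and lists were chosen with earlier results of these data known, and 3 genes of the lists are not reported here. All 10 members are named, and similar genes are the 2 with the highest correlation. From the other lists, paralogs, the largest and smallest differences and genes whose call departs from the rest are named.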

Additional observations from a re-analysis of the deposited data

How the results depend on the processing

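For the line differences, all 260 alternative values of the 10 genes (13 per gene and comparison) kept the direction and the call. DUSP4 passed the filter only through SW480. Without the filter 9 of 10 were still called in each comparison. Of all 43156 genes then fitted, 9623 were called higher with the empty vector and 9436 with HKDC1. DUSP4 is among the 9 and remains a description, so this count is no test of it. For the plasmid effects in the 2 lines, of 319 alternative values 280 kept direction and call, 38 changed sign without a call and 1 became a call (DUSP4 in COLO320DM was filtered out when its line was fitted alone). That 1 was DUSP8 in SW480 with the replicate block and without pair 1, so 1 gene was called there against 0. Of all 23759 genes tested in that fit, 543 were called. The paired fit with the replicate block called 10 of the other ERK-induced genes lower with HKDC1 in SW480 against 0 without it. Without pairs 1, 2 and 3 it called 11, 5 and 7, and leaving out single libraries without the block gave 0 each time. Over all tested genes, the blocked fits without pairs 1, 2 and 3 called 428, 51 and 112 lower, and the full blocked fit 141. The block raised the calls over all genes from 2 to 18 in COLO320DM, from 3 to 180 in SW480 and from 2 to 10 for the difference between lines, and changed no call on the 10 genes. Uncalled effects that changed sign are given on the log2 scale. By limma-voom DUSP4 was at 0.15 and SPRY2 at -0.030 in COLO320DM. With library totals ETV4 was at -0.019 in COLO320DM and SPRED1 at -0.0026 in SW480. When single libraries were left out, the effect in COLO320DM ranged from -0.66 to 1.4 for DUSP4, -0.17 to 0.27 for DUSP6, -0.36 to 0.54 for SPRY2, -0.54 to 0.42 for SPRY4, -0.15 to 0.13 for ETV4 and -0.22 to 0.18 for PHLDA1. In SW480 it ranged from -0.034 to 0.0013 for DUSP4, -0.27 to 0.027 for DUSP6, -0.11 to 0.24 for SPRY2, -0.052 to 0.063 for SPRED1 and -0.13 to 0.090 for ETV5, and the line difference of DUSP10 from -0.34 to 0.20. With the block, COLO320DM gave -0.20 for ETV4 and 0.030 for PHLDA1 without pair 1, 1.12 for DUSP4 without pair 2, and -0.0012 for DUSP6, -0.44 for SPRY2 and 0.12 for SPRY4 without pair 3. In SW480 it gave -0.025 for SPRED1 without pair 1, and 0.018 for DUSP4 and 0.0072 for ETV5 without pair 3. The causes were not tested. At 0 to 4 counts per library, DUSP4 in COLO320DM is limited by depth.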
